A study of Mus musculus with 91 samples.

Results

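Within a pool of 91 single cells taken from the caudal lateral epiblast of mouse embryos, the mesoderm-like cells that were high in the segmentation clock genes Lfng, Hes7 and Nrarp (clock-high cells) were compared with those that were low in them (clock-low cells). A cell counted as mesoderm-like when its counts of Aldh1a2 scaled to 1000000 per cell (CPM), the retinoic acid synthesising enzyme of the paraxial mesoderm, were at least its CPM of Nkx1-2, a transcription factor gene of the caudal epiblast. This held for 48 of the 91 cells, and the other 43 are called epiblast-like. The 48 cells were ordered by a clock score, the sum of log2(CPM + 1) over the 3 clock genes. The 16 cells with the highest scores formed the clock-high group, the 16 with the lowest the clock-low group, and the 16 between them are called middle cells. These 5 genes chose the cells, so their levels describe the groups and are not findings.

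All cells came from wild type embryos of the outbred MF1 strain at the early headfold stage, at about embryonic day 8. No cell carried an allele or received a treatment, so the groups share strain, stage, tissue and preparation. The tissue lay beside the caudal end of the node and beside the cranial part of the primitive streak, most of the paraxial mesoderm beneath it had been taken off, and the pieces were pooled before single cells were sorted into the wells of a plate and sequenced by Smart-seq2, a full-length method without molecular identifiers. No embryo is named for any cell, so the cells stand for 1 pool. No test between groups of cells is possible, and every difference below is a description of these cells with the SD over cells as its spread.

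The label mesoderm-like held for the presomitic genes, while a part of the epiblast genes was still read. Tbx6 and Msgn1, transcription factor genes of the presomitic mesoderm, had reads in 16 of 16 clock-high and in 16 of 16 clock-low cells, against 14 and 5 of the 43 epiblast-like cells. Of the epiblast genes, Utf1 and Cldn3 had reads in 2 and 1 clock-high cells and in 1 and 0 clock-low cells, against 27 and 10 of 43 epiblast-like cells. Pou5f1 was read in 16 clock-high and 15 clock-low cells, at 74.8 and 49.2 CPM, against 98.6 CPM in epiblast-like cells. Epcam was read in 12 and 14 cells, Cdh1 in 7 and 10 and Wnt8a in 9 and 8, at 49.03, 43.95 and 40.97 CPM in clock-high and 58.3, 74.3 and 23.8 CPM in clock-low cells, against 272, 276 and 119 CPM in epiblast-like cells. Sox2 was read in 11 cells of each clock group, at 0.659 and 2.68 CPM, against 20.2 CPM in epiblast-like cells. Of the lists for other cell types, Sox17 of the endoderm, Noto and Shh of the node and notochord, Sox1 and Sox3 of the neural plate, and Tal1, Kdr and Cdh5 of blood and endothelium were unread in all 32 cells. Lmo2, on the blood and endothelium list, was read in 14 clock-high and 11 clock-low cells. Lhx1, on the intermediate and lateral mesoderm list, was read in 13 and 6. Other members had reads in few cells, among them Rbp4 of the endoderm list in 2 clock-high and 2 clock-low cells and Foxa2 of the node list in 1 and 0. On the neural list Irx3 was read in 2 and 2 and Pax6 in 2 and 1, and on the blood list Etv2 in 2 and 3. When no cell had a read, the share was limited to 3 cells of the number examined, which allows up to 18.8% for 16 cells, 9.38% for 32 and 6.98% for 43.

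In the presomitic mesoderm, a genetic oscillator known as the segmentation clock sets the rhythm at which somites form. Notch receptors bound by Delta ligands on neighbouring cells release an intracellular domain that acts with the DNA-binding protein RBPJ, and among the genes switched on are Hes7, a transcriptional repressor that shuts off its own gene and Lfng, then Lfng, a glycosyltransferase that modifies Notch receptors, and Nrarp, a small ankyrin protein that dampens Notch signalling. Transcripts of these genes sweep through the tissue in waves, so that neighbouring cells are caught at different phases, while Wnt and Fgf signals keep the caudal tissue immature.

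As described above, Notch switches on all 3 clock genes, and Hes7 shuts off its own gene and Lfng. Because these 3 genes make up the clock score, the bases just before their transcription starts are shown. They are from RefSeq on GRCm38.p6, at chr5:140607091-140607319 for Lfng, chr11:69120203-69120403 for Hes7 and chr2:25180508-25180757 for Nrarp, all on the plus strand. Capitals mark matches on either strand to TGGGAA, the core letters of an RBPJ site, or to CACNAG, the N-box bound by Hes repressors. The motifs do not overlap each other in these stretches.
Lfng: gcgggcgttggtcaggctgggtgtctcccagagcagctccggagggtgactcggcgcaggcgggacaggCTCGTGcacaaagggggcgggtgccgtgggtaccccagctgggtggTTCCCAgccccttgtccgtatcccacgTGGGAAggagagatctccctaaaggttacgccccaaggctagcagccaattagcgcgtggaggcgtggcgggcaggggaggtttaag
Hes7: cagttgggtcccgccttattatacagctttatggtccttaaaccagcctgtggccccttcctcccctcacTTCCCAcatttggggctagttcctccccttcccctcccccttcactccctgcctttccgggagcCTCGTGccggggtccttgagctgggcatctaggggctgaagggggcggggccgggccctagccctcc
Nrarp: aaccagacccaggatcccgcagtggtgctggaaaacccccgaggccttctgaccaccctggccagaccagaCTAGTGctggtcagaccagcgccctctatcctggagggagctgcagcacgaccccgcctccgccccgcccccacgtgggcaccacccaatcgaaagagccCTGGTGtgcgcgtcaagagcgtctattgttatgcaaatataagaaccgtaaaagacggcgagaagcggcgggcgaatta
In the 250 bases before the start, Lfng held 2 matches to TGGGAA and 1 to CACNAG, Hes7 held 1 of each, and Nrarp held 0 and 2. Among 27025 mouse promoters of the same length, 21.5% held TGGGAA and 36.7% held CACNAG on either strand, so that matches to these short motifs are common. They describe letters and are not evidence of binding.

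The clock score ran between 11.55 and 18.95 in clock-high cells, with a median of 14.3, between 7.50 and 11.5 in middle cells and between 0 and 7.34 in clock-low cells, with a median of 5.76. In epiblast-like cells its median was 0.892. The borders of the groups fall in a continuous series. The last clock-high cell, D1, scored 11.55 and the first cell outside, H2, scored 11.52, while the first clock-low cell, G7, scored 7.34 and the last cell above that border, E8, scored 7.50. All 3 clock genes were read in 13 of 16 clock-high cells, in 2 of 16 middle cells and in 0 of 16 clock-low cells. No epiblast-like cell had reads of all 3, and 20 of 43 had reads of none.

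Lfng was read in every clock-high cell, at 2.43 CPM in the lowest, 19.02 CPM at the median and 134 CPM in the highest, against 1 clock-low cell at 1.90 CPM and 15 clock-low cells with no read. The sum over cells was 1248 reads in clock-high cells (exact Poisson interval of 95%, 1180 to 1319) and 5 reads in clock-low cells (1.62 to 11.7). Reads of Lfng were also found in 8 middle cells and in 3 of 43 epiblast-like cells. Lfng was part of the clock score, so its split between clock-high and clock-low cells follows from how the cells were chosen. Over all mesoderm-like cells, 25 had reads of Lfng. Its values in middle cells ranged between 0 and 36.9 CPM.

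Hes7 differed in degree. Its lowest, median and highest values were 53.4, 208 and 497 CPM in clock-high cells and 0, 46.7 and 162 CPM in clock-low cells, and the groups overlapped. The mean was 221 ± 115 CPM in clock-high cells and 53.4 ± 45.7 CPM in clock-low cells (SD, n = 16 cells each). It was read in 14 of 16 clock-low cells, and in 12 of them it was the only clock gene read. Cell B9 had 0.758 CPM, and E11 and H4 had no read of any clock gene. Hes7 reads were also present in 17 of 43 epiblast-like cells.

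Nrarp had reads in 13 of 16 clock-high cells, with 0, 7.58 and 34.8 CPM as the lowest, median and highest value, against 1 of 16 clock-low cells, which had 1.63 CPM. In middle cells Nrarp was read in 7 of 16, and 5 of these 7 had no read of Lfng. Cell A7 had 29.7 CPM of Nrarp with no read of Lfng, whereas cell D4 had 36.9 CPM of Lfng with no read of Nrarp. At 2 CPM or more, 14 of the 48 mesoderm-like cells had both Lfng and Nrarp, 9 had Lfng alone, 4 had Nrarp alone and 21 had neither.

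**Figure D1:**
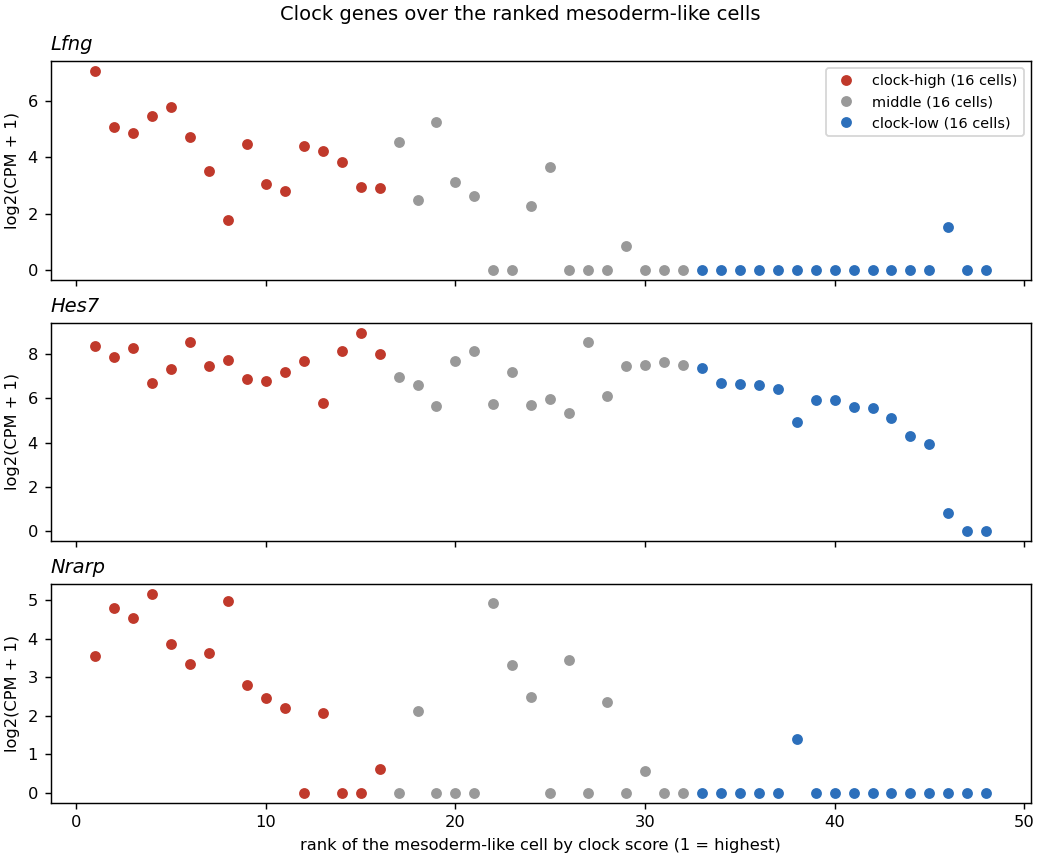
Level of each clock gene, as log2(CPM + 1), in the 48 mesoderm-like cells ordered by clock score from the highest (rank 1) to the lowest, with 1 point per cell. Lfng has reads in all 16 clock-high cells and 1 clock-low cell, Nrarp in 13 and 1, whereas Hes7 has reads in 16 and 14 and declines gradually.

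To see each clock gene where it had not been used to choose the cells, the 48 cells were ranked again by 2 of the genes and the third was read in the top and the bottom 16. Lfng averaged 23.6 ± 33.9 CPM in the top 16 and 3.15 ± 9.46 CPM in the bottom 16, with reads in 13 and 3 cells. Its log2 ratio was 2.57 after 1 CPM was added to each mean, as in every log2 ratio below unless stated otherwise. Hes7 averaged 159 ± 103 CPM in the top and 74.9 ± 61.6 CPM in the bottom cells, with reads in 16 and 14 (log2 ratio 1.08). Nrarp averaged 8.45 ± 11.1 CPM in the top and 2.83 ± 7.62 CPM in the bottom cells, with reads in 9 and 4 (log2 ratio 1.30). All 3 were more abundant in the cells chosen by the others, with wide overlap between single cells. The ratio of Hes7 fell just below 2-fold, to a log2 ratio of 0.97, when every cell was thinned to 500000 counts.

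**Figure D2:**
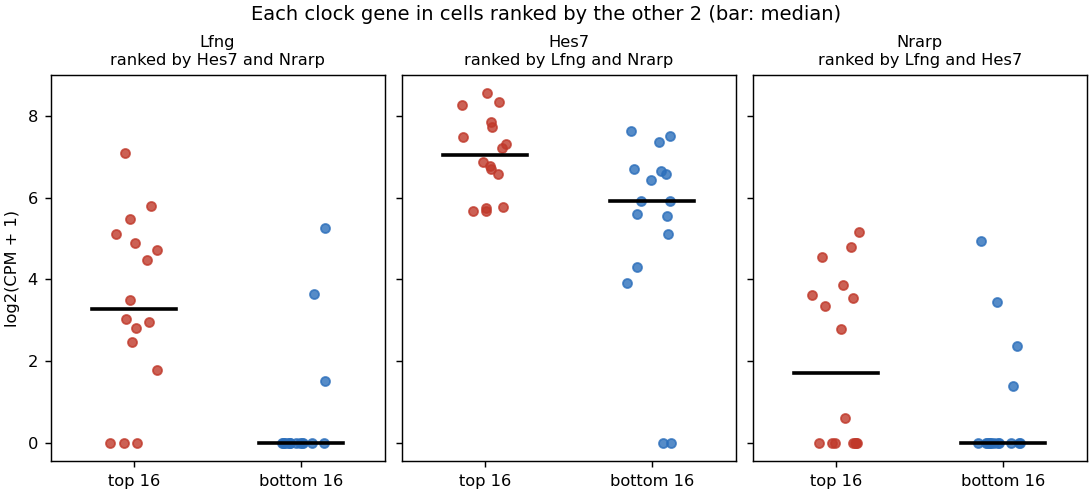
Each clock gene, as log2(CPM + 1), in the 16 mesoderm-like cells that rank highest (left) and the 16 that rank lowest (right) by the other 2 clock genes, with 1 point per cell and a bar at the median. Lfng has reads in 13 cells on the left and 3 on the right, Nrarp in 9 and 4, and Hes7 in 16 and 14.

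Depth was similar in the clock groups. Total counts were 1831537 to 3394368 in clock-high cells (median 2544100) and 1665093 to 4296934 in clock-low cells (median 2666770), and the median number of genes with a read was 7932.5 in clock-high and 7940 in clock-low cells. Mitochondrial genes took a median of 4.68% of the counts in clock-high and 5.04% in clock-low cells. Over the 48 mesoderm-like cells, which share a plate, Spearman's rho of the score was 0.02 with the total count, -0.02 with the number of genes read and -0.03 with the mitochondrial share. Plate position did differ, since 13 of 16 clock-high cells but 7 of 16 clock-low cells lay in plate columns 1 to 6. The part of plate position in the results was not tested, and values within columns 1 to 6 and within columns 7 to 12 are given beside the main genes. Columns 7 to 12 held 3 clock-high cells. Where a mean within a part of the plate was near 0, the size of the ratio depends on the 1 CPM added.

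Beyond the genes of the rule, 10817 genes had a read in at least 8 of the 32 cells. A gene was called when the ratio of the means was at least 2-fold and at least 8 of 16 cells had reads in the group with the higher mean. By this rule 480 genes (4.44%) were higher and 408 genes (3.77%) were lower in clock-high cells, and the median log2 ratio of all 10817 was -0.01. Of these, 237 higher and 207 lower genes were still called without the highest cell of the higher group. In no gene did the 2 groups fail to overlap. The clock groups were thus alike in most genes, and the calls below are to be read against these 4.44% and 3.77%.

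Among the 27 members of the Notch pathway that were followed, 18 were compared, 0 were called higher, 2 were called lower and the median log2 ratio was 0.11. Hes5, a repressor gene that Notch switches on in many tissues, had too few cells with reads to be compared by the rule. Hes5 had reads in 6 clock-high cells, at 24.98, 29.6, 33.7, 71, 71.2 and 140 CPM, and in 0 of the 32 other mesoderm-like cells, 16 middle and 16 clock-low. Summed over the group, the 1135 reads of clock-high cells put Hes5 at least 390.0-fold higher than the floor of 3 counts over all clock-low cells. No 1 CPM was added for this value. With 1 CPM added to each mean, the fold was 24.2. The floor covers counting error only.

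The 6 cells with Hes5 held all of the 4 highest clock scores and ranks 8 and 11. Each of them also had at least 2 CPM of Lfng and of Nrarp, whereas 17 cells with this much Lfng and 12 with this much Nrarp had no Hes5. Hes5 was not confined to mesoderm-like cells. It had reads in 12 of 43 epiblast-like cells (27.9%, exact interval 15.3 to 43.7%), at similar depth (median total 2450070 against 2544100 in clock-high cells), so its reads are not particular to cells with a high clock score.

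Among the other Notch target genes, Hes1, a related repressor gene, averaged 4.54 ± 13.6 CPM in clock-high and 0.899 ± 2.69 CPM in clock-low cells, with reads in 5 clock-high and 3 clock-low cells, and 1 cell at 54.3 CPM held most of it. Hey1 had reads in 3 clock-high and 1 clock-low cells and Heyl in 1 clock-high and 0 clock-low cells. Hes1 had reads in 38 of 43 epiblast-like cells at a mean of 45.5 CPM. The target genes other than the 3 clock genes were therefore seldom read in either mesoderm-like group.

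Dll1, the Delta ligand of the presomitic mesoderm, was read in every cell of both groups. Its lowest, median and highest values were 216, 526 and 1053 CPM in clock-high cells and 0.409, 295 and 580 CPM in clock-low cells, and the groups overlapped. The means were 557 ± 278 CPM in clock-high and 287 ± 160 CPM in clock-low cells, a log2 ratio of 0.96 that stayed just short of the 2-fold call. The log2 ratio was 0.92 among cells of plate columns 1 to 6 and 1.13 among those of columns 7 to 12, and it passed 2-fold as a difference of mean log2(CPM + 1), at 1.36, and between the outermost 8 cells of each end, at 1.34. Middle cells averaged 310 CPM, near the clock-low mean.

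Dll3, a divergent Delta protein that acts inside the cell and is needed for regular somites, did not follow the score. It had lowest, median and highest values of 0, 253 and 620 CPM in clock-high cells and 0, 283 and 550 CPM in clock-low cells, with a log2 ratio of 0.00. The receptor gene Notch1 averaged 138 ± 112 CPM in clock-high and 82.6 ± 85.3 CPM in clock-low cells (log2 ratio 0.73, not called), and Rbpj had a log2 ratio of 0.22, or -0.40 without its highest clock-high cell.

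The 2 Notch genes called lower were Rfng, a fringe glycosyltransferase of the same family as Lfng, and Maml2, a coactivator of the RBPJ complex. Rfng had reads in 4 of 16 clock-high and 8 of 16 clock-low cells, at 12.5 ± 36.2 CPM in clock-high and 29.2 ± 42.1 CPM in clock-low cells (log2 ratio -1.16). Maml2 had reads in 12 cells of each group, at 32.2 ± 53.7 CPM in clock-high and 77.9 ± 103 CPM in clock-low cells (log2 ratio -1.25). Both calls were lost without the highest clock-low cell, at -0.78 and -0.95. Their promoters held no match to TGGGAA and 1 to CACNAG each.

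Over the 48 mesoderm-like cells, Spearman's rho was 0.47 between Lfng and Hes7, 0.43 between Lfng and Nrarp and 0.22 between Hes7 and Nrarp. Hes5 had a rho of 0.56 with Nrarp, 0.45 with Lfng and 0.33 with Hes7, and Dll1 had 0.47 with Nrarp and 0.32 with Lfng. Values as high were found outside these genes. Lfng had a rho of 0.49 with Mesp1, which was read in 5 of the 48 cells, and 0.44 with Lhx1. With Lhx1, Hes7 had 0.35 and Nrarp 0.06. Lfng had a rho of -0.23 with Tbx6 and -0.27 with Dusp6. These are descriptions over sparse counts of cells that share a pool and a plate, and the weak ones carry no finding.

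**Figure D3:**
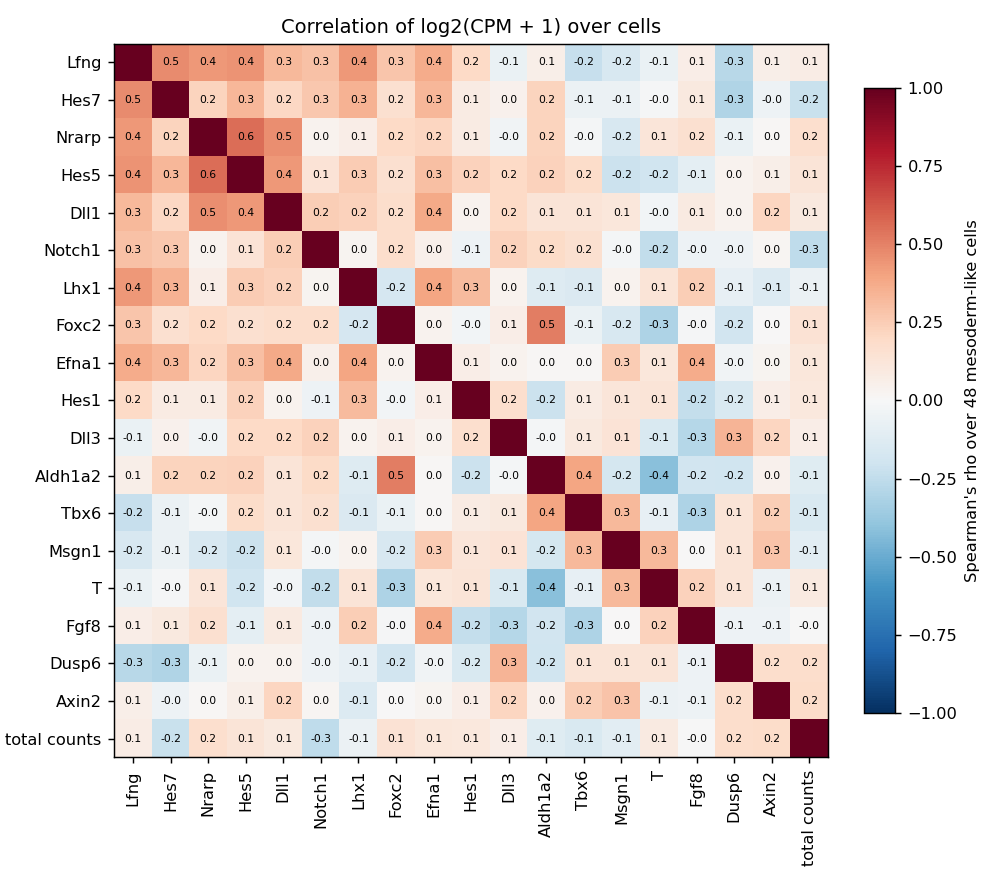
Spearman's rho of log2(CPM + 1) between pairs of genes, and with the total count, over the 48 mesoderm-like cells, with red for positive and blue for negative values. The clock genes, Hes5 and Dll1 form a block of positive values at the upper left, with the highest between Nrarp and Hes5 (0.56), while the total count is near 0 for most genes. Lhx1, which is not in that block, has 0.44 with Lfng.

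Fgf signals keep the caudal presomitic mesoderm undifferentiated and act through the ERK kinase. Of 21 genes of Fgf signalling and its feedback, 17 were compared, 3 were called higher in clock-high cells, 1 was called lower and the median log2 ratio was 0.00. The 3 higher genes were the ligand gene Fgf8, the transcription factor gene Etv4, a common target of Fgf, and Efna1, an ephrin ligand gene. The lower one was Fgf4, which encodes another ligand.

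Fgf8 had lowest, median and highest values of 0, 0.943 and 132 CPM in clock-high cells and 0, 0 and 41.8 CPM in clock-low cells, with reads in 9 clock-high and 5 clock-low cells and means of 24.3 ± 43.3 CPM in clock-high and 6.92 ± 12.9 CPM in clock-low cells (log2 ratio 1.68). Etv4 had lowest, median and highest values of 0, 56.4 and 206 CPM in clock-high cells and 0, 7.94 and 89.9 CPM in clock-low cells, with reads in 13 clock-high and 11 clock-low cells (log2 ratio 1.52). Efna1 was read in 8 of 16 clock-high cells, up to 199 CPM, and in 2 of 16 clock-low cells, up to 76.6 CPM, with means of 40.6 ± 62.5 CPM in clock-high and 8.77 ± 24.1 CPM in clock-low cells (log2 ratio 2.09). In each of these 3 genes the groups overlapped, since cells of both had no read. Epiblast-like cells also had reads of Fgf8 (21 of 43), Etv4 (36 of 43) and Efna1 (10 of 43).

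The higher levels of these 3 genes lay in a part of the plate. Within columns 1 to 6 the log2 ratios were 2.92 for Fgf8, 2.14 for Etv4 and 5.56 for Efna1, whereas within columns 7 to 12, with 3 clock-high and 9 clock-low cells, they were -0.54, 0.14 and 0.08. Fgf8 and Etv4 also fell below 2-fold when the cells were ranked without Nrarp, at 0.56 and 0.59. Over the 15 alternatives the call was lost in 2 for Fgf8, 3 for Etv4 and 3 for Efna1. The lowest log2 ratio of Etv4 among them was 0.26.

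Fgf4 ran the other way. Its lowest, median and highest values were 0, 0 and 174 CPM in clock-high cells and 0, 73.6 and 311 CPM in clock-low cells, with reads in 6 clock-high and 10 clock-low cells and means of 35.1 ± 60.7 CPM in clock-high and 104 ± 115 CPM in clock-low cells (log2 ratio -1.54). The log2 ratio was -1.39 within plate columns 1 to 6, and the call was kept in all 15 alternatives. Within columns 7 to 12 the log2 ratio was -6.46, from 3 clock-high cells at a mean of 0.105 CPM, so its size depends on the 1 CPM added. Only 4 of 43 epiblast-like cells had reads of Fgf4. The feedback genes of the ERK pathway were not called. Dusp6, an ERK phosphatase gene, averaged 166 ± 142 CPM in clock-high and 277 ± 184 CPM in clock-low cells (log2 ratio -0.74), and Spry2 and Spry4 had log2 ratios of -0.33 and -0.30.

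Wnt signalling also oscillates in the presomitic mesoderm, out of step with Notch. Of 26 Wnt targets and feedback genes, 22 were compared, 2 were called higher, 0 were called lower and the median log2 ratio was 0.07. None of the genes best known to cycle with the Wnt signal, Axin2, Sp5 and Dkk1, was called. Axin2, which encodes a scaffold of the complex that degrades beta-catenin, had lowest, median and highest values of 7.71, 83.1 and 223 CPM in clock-high cells and 0, 68.04 and 185 CPM in clock-low cells (log2 ratio 0.24). The target gene Sp5 had a log2 ratio of -0.39 and the secreted inhibitor gene Dkk1 one of -0.21, with Dkk1 read in 3 clock-high and 8 clock-low cells. A single clock-high cell held 762 CPM of Dkk1, the medians were 0 CPM in clock-high and 27.1 CPM in clock-low cells, and without that cell the log2 ratio was -1.68. The ligand gene Wnt3a averaged 36.2 ± 52.7 CPM in clock-high and 35.5 ± 46.3 CPM in clock-low cells.

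The 2 Wnt genes called higher were Fzd10, a receptor gene, at 51.5 ± 38.7 CPM in clock-high and 22.4 ± 27.6 CPM in clock-low cells (log2 ratio 1.17), and Axin1, a scaffold gene related to Axin2, at 45.4 ± 64.2 CPM in clock-high and 20.4 ± 35.4 CPM in clock-low cells (log2 ratio 1.12). Axin1 fell to 0.74 without its highest clock-high cell and Fzd10 to 0.92 with a pseudocount of 10 CPM.

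**Figure D4:**
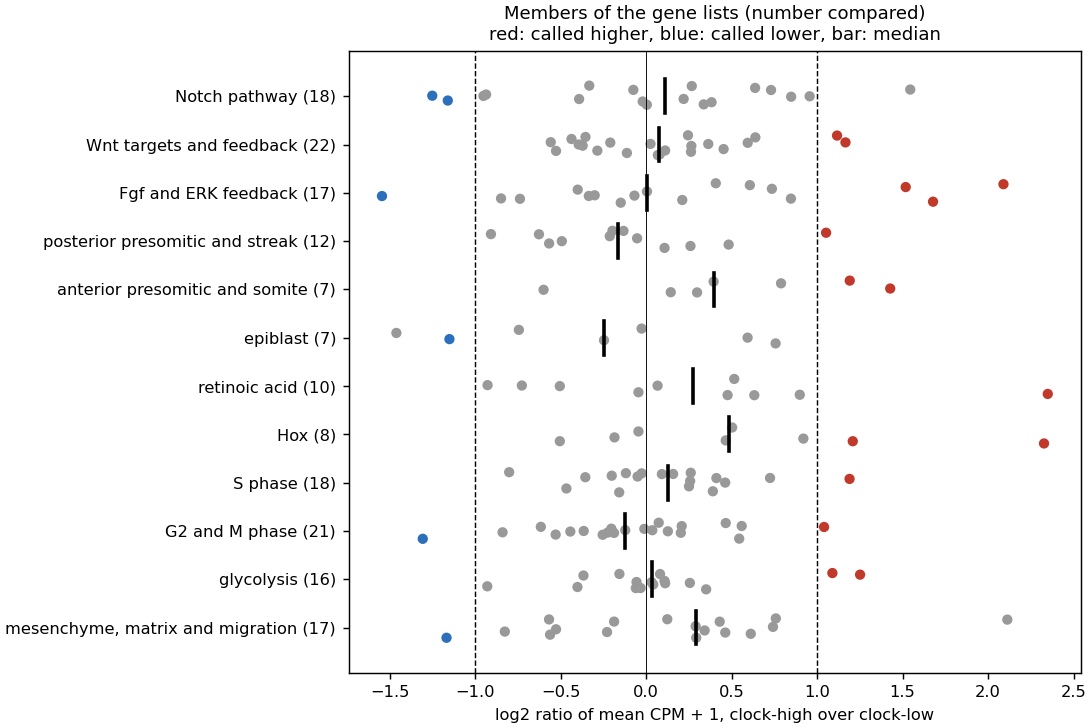
Log2 ratio of mean CPM + 1, clock-high over clock-low, for the compared members of each gene list with at least 5 of them, with 1 point per gene, red for genes called higher, blue for genes called lower and grey for the rest, a bar at the median and dashed lines at 2-fold. The medians lie between -0.25 (epiblast) and 0.48 (Hox), and called genes number at most 4 in a list.

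Of the genes of the caudal presomitic mesoderm, Tbx6, Msgn1 and T had similar levels in the 2 clock groups. Of 20 genes of the posterior presomitic mesoderm and streak, 12 were compared, 1 was called higher, 0 were called lower and the median log2 ratio was -0.16. Among the 12 ratios, 4 lay above 0. Mixl1 had the lowest, at 178 CPM in clock-high and 335 CPM in clock-low cells (log2 ratio -0.91, not called). Tbx6, which directs cells to the paraxial mesoderm, had lowest, median and highest values of 106, 261 and 823 CPM in clock-high cells and 83.8, 293 and 812 CPM in clock-low cells (log2 ratio -0.13). Msgn1, a factor of presomitic maturation, had 36.6, 110 and 275 CPM in clock-high cells and 15.96, 135 and 365 CPM in clock-low cells (log2 ratio -0.21). T (Brachyury), the factor of the streak and its early mesoderm, averaged 398 ± 260 CPM in clock-high and 413 ± 390.5 CPM in clock-low cells (log2 ratio -0.05). The values of all 3 overlapped over nearly the whole range.

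Aldh1a2, which was part of the rule for mesoderm-like cells but not of the clock score, averaged 1737 ± 671 CPM in clock-high and 1454 ± 574 CPM in clock-low cells (log2 ratio 0.26), and Nkx1-2 averaged 43.5 ± 126 CPM in clock-high and 68.4 ± 89.1 CPM in clock-low cells. Nkx1-2 had reads in 11 clock-high and 14 clock-low cells. Its highest values were 489 and 164 CPM in clock-high cells D1 and G3, and 290, 219 and 160 CPM in clock-low cells E12, C6 and E11, and the lowest epiblast-like cell had 356 CPM. The posterior gene called higher was Snai1, a repressor that drives epithelial to mesenchymal transition. Snai1 had reads in 9 clock-high and 6 clock-low cells, at 37.7 ± 38.7 CPM in clock-high and 17.7 ± 25.02 CPM in clock-low cells (log2 ratio 1.05), a call lost without its highest cell (0.88) and turned to -0.16 when the cells were ranked by the sum of CPM. Mesp1, a factor of nascent and segmenting mesoderm, was read in 3 clock-high cells, up to 42.5 CPM, in 2 middle cells and in no clock-low cell.

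At the anterior end of the presomitic mesoderm, cells turn on segment and somite genes. Of 22 such genes, 7 were compared, 2 were called higher, 0 were called lower and the median log2 ratio was 0.39. Of the genes that define the segment border and the somite, Mesp2, Ripply1, Uncx, Tbx18 and Pax3 were unread in all 32 cells. Ripply2 had reads in 1 cell of each group. Tcf15, a somite epithelium factor, was read in 4 clock-high and 6 clock-low cells. By contrast, Meox1 was read in 14 clock-high and 11 clock-low cells and Foxc1 in 13 and 12, so the list was read in part in both groups.

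Foxc2, a forkhead factor of paraxial mesoderm, had lowest, median and highest values of 0, 70.6 and 292 CPM in clock-high cells and 0, 0 and 183 CPM in clock-low cells, with reads in 12 clock-high and 7 clock-low cells and means of 84.8 ± 85.6 CPM in clock-high and 30.9 ± 53.7 CPM in clock-low cells (log2 ratio 1.43). It had no read in 43 epiblast-like cells. The log2 ratio was 2.33 within plate columns 1 to 6 and 1.66 within columns 7 to 12, and 0.79 when the cells were ranked without Lfng. The related gene Foxc1 averaged 76.8 ± 60.5 CPM in clock-high and 62.3 ± 93.8 CPM in clock-low cells (log2 ratio 0.30). The somite factor gene Meox1 averaged 145 ± 155 CPM in clock-high and 83.7 ± 91.4 CPM in clock-low cells (log2 ratio 0.79, not called, and 1.05 without its highest clock-low cell). Pcdh8, a protocadherin gene of the forming segment, averaged 57.1 ± 75.9 CPM in clock-high and 24.5 ± 55.7 CPM in clock-low cells (log2 ratio 1.19), but the ratio turned to -0.36 when the cells were ranked without Lfng.

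Lhx1, a LIM homeodomain factor of early mesoderm and later of the kidney, was read in 13 of 16 clock-high cells (81.3%, exact interval 54.4 to 96.0%) and in 6 of 16 clock-low cells (37.5%, 15.2 to 64.6%). Its lowest, median and highest values were 0, 49.01 and 287 CPM in clock-high cells and 0, 0 and 111 CPM in clock-low cells, with means of 70.8 ± 79.7 CPM in clock-high and 19.7 ± 33.3 CPM in clock-low cells (log2 ratio 1.80). In epiblast-like cells 4 of 43 had reads, at a mean of 0.179 CPM. The log2 ratio was 5.16 within plate columns 1 to 6 and -0.50 within columns 7 to 12. The other markers on the list of intermediate and lateral mesoderm were unread or read in few cells. Msx1 had reads in 4 clock-high and 0 clock-low cells, Bmp4 in 0 and 4 and Foxf1 in 4 and 5. Of the 20 genes on that list 2 were compared, Lhx1 was the only one called, and Osr1, Pax2, Pax8, Wt1 and Hand2 had no read in the 32 cells.

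Retinoic acid, which Aldh1a2 makes, promotes differentiation of the paraxial mesoderm. Of 13 retinoic acid genes 10 were compared, 1 was called higher, 0 were called lower and the median log2 ratio was 0.27. The called gene was Stra6, which encodes a membrane receptor for the retinol carrier. It had reads in 11 cells of each group, with lowest, median and highest values of 0, 80.4 and 358 CPM in clock-high cells and 0, 8.03 and 112 CPM in clock-low cells and means of 119 ± 125 CPM in clock-high and 22.5 ± 34.3 CPM in clock-low cells (log2 ratio 2.35). The groups thus differed in level and not in the number of cells with reads. The call was kept in all 15 alternatives, and the log2 ratio was 1.10 within plate columns 1 to 6 and 5.13 within columns 7 to 12. Cyp26a1, the enzyme that breaks retinoic acid down in the caudal embryo, had no read in the 32 cells and reads in 11 of 43 epiblast-like cells.

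Hox genes encode positional factors that are switched on in the order in which they lie on the chromosome. Of the 30 that the annotation names from the list, 8 were compared, 2 were called higher, 0 were called lower and the median log2 ratio was 0.48. Hoxb4 had lowest, median and highest values of 0, 47.3 and 133 CPM in clock-high cells and 0, 9.42 and 118 CPM in clock-low cells, with means of 55.9 ± 43.8 CPM in clock-high and 23.6 ± 34.6 CPM in clock-low cells (log2 ratio 1.21), but the log2 ratio was 1.44 within plate columns 1 to 6 and -2.10 within columns 7 to 12. Hoxd3 was low in both groups, with reads in 8 clock-high and 2 clock-low cells at 5.36 ± 8.20 CPM in clock-high and 0.269 ± 0.797 CPM in clock-low cells (log2 ratio 2.33, and 0.58 with a pseudocount of 10 CPM). Of 22 Hox genes from paralogue group 4 onward, a clock-high cell had reads of 1 to 5 (median 2), a clock-low cell of 0 to 3 (median 1) and an epiblast-like cell of 0 to 8 (median 3).

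**Figure D5:**
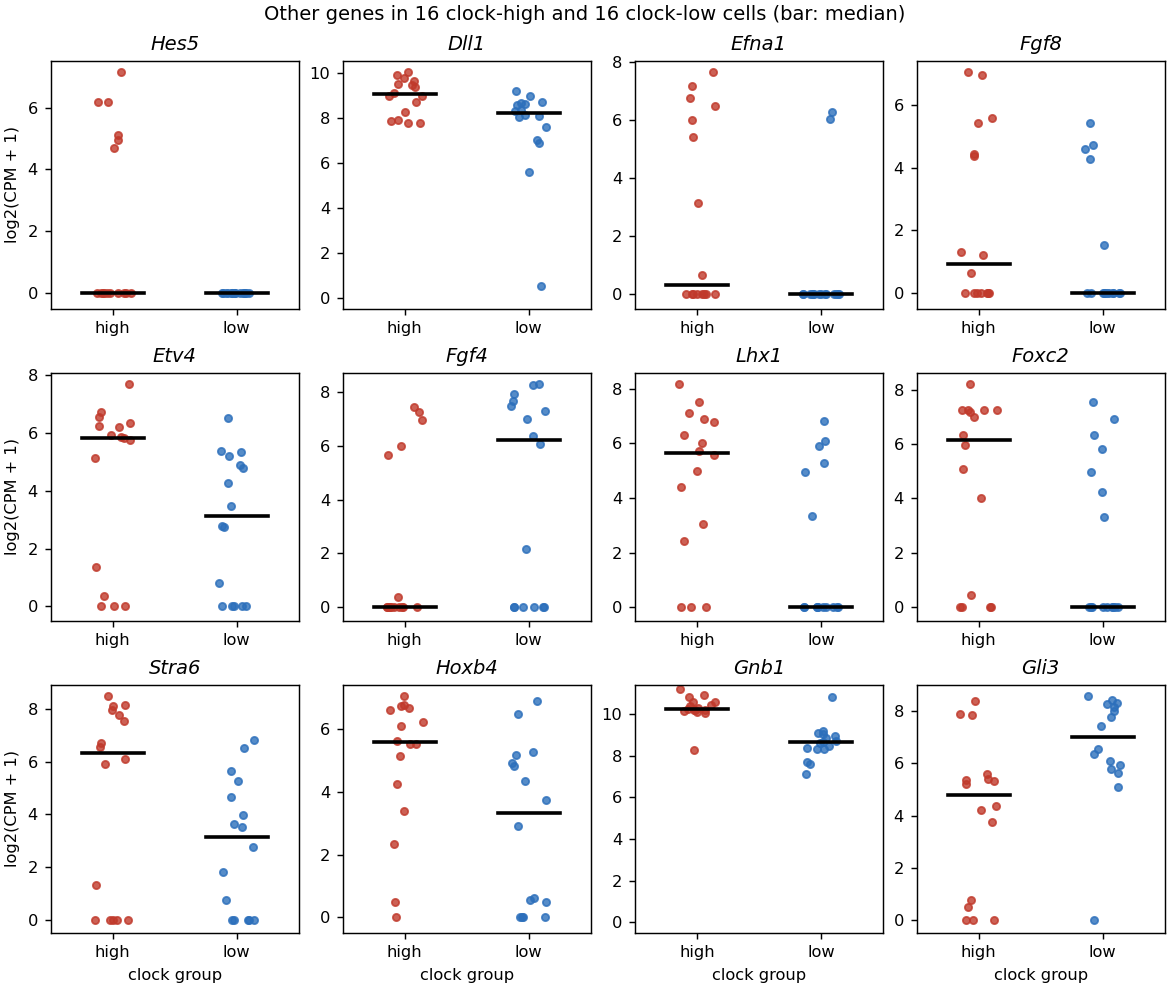
Levels of 12 genes that were not used to choose the cells, as log2(CPM + 1), in 16 clock-high (left, red) and 16 clock-low cells (right, blue), with 1 point per cell and a bar at the median. Hes5 has reads in 6 clock-high cells only, Fgf4 is read in 6 clock-high and 10 clock-low cells, and Gnb1 is read in all 32 cells, with 1 clock-low cell among the clock-high values and 1 clock-high cell among the clock-low values.

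Calls among genes of the cell cycle, metabolism and stress are to be read against the 4.44% called higher and 3.77% called lower over all genes compared. Of 18 S phase genes, 1 was called higher (Cdc6, log2 ratio 1.19), 0 were called lower and the median was 0.12. Of 21 G2 and M phase genes, 1 was called higher (Hmmr, 1.04), 1 was called lower (Nusap1, -1.31) and the median was -0.12. Of 18 glycolysis genes 16 were compared, 2 were called higher, the transporters of glucose (Slc2a3, 1.09) and of lactate (Slc16a3, 1.25), 0 were called lower and the median was 0.04. Without the highest cell of the higher group Cdc6 fell to 0.996, Hmmr to 0.72, Nusap1 to -0.89 and Slc2a3 to 0.21. Slc2a3 and Cdc6 turned to -0.65 and -0.03 when the cells were ranked by the sum of CPM. Slc16a3 stayed at 1.01 without its highest cell, but 4 of 15 alternatives lost its call, with a lowest log2 ratio of 0.038. Of 15 immediate early genes 3 were compared and 0 were called in either direction, with a median of 0.06.

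Of 10 genes of the BMP response 4 were compared, 1 was called higher, 0 were called lower and the median log2 ratio was 0.64. The called gene was Id3, an inhibitor of basic helix-loop-helix factors, at 12.3 ± 21.6 CPM in clock-high and 2.58 ± 9.82 CPM in clock-low cells (log2 ratio 1.90), which turned to -0.49 between the upper and the lower 24 cells. Of 20 mesenchyme, matrix and migration genes 17 were compared, 0 were called higher, 1 was called lower and the median was 0.29. The lower one was the cadherin gene Cdh11, at 52.5 ± 79.6 CPM in clock-high and 119 ± 161 CPM in clock-low cells (log2 ratio -1.17, and -0.80 without its highest cell). The fibronectin gene Fn1 and the receptor gene Pdgfra had log2 ratios of 0.12 and -0.23.

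The lists of other cell types had few genes to compare, and their calls stand beside the same 4.44% and 3.77% over all genes compared. Of 12 epiblast genes 7 were compared, 0 were called higher, 1 was called lower and the median log2 ratio was -0.25, and of 11 neural genes 1 was compared and called lower. Both calls are Sox2, at 0.659 ± 1.12 CPM in clock-high and 2.68 ± 9.16 CPM in clock-low cells, which rests on 1 clock-low cell at 36.98 CPM and gave a log2 ratio of 0.25 without that cell. The summed level of the epiblast genes ranged between 24.3 and 518 CPM in clock-high and between 7.45 and 603 CPM in clock-low cells. Of 14 blood and endothelium genes 1 was compared and 0 were called, namely Lmo2, a hematopoietic cofactor gene, at 131 CPM in clock-high and 83.8 CPM in clock-low cells (log2 ratio 0.64), and of 11 endoderm and 8 node and notochord genes 0 had reads in enough cells.

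The largest ratios came from genes with reads in a part of the cells of 1 group and few cells of the other. The 12 called genes with the largest positive ratios that kept the call without their highest cell were Lad1, Gmeb2, Chic1, Bcor, Zadh2, Tank, Zfp13, Zfp748, Rpap1, Aebp2, S1pr3 and Zfp944. Lad1, which encodes ladinin, a protein of the basement membrane, was read in 8 of 16 clock-high and 0 of 16 clock-low cells. The 1327 reads of clock-high cells put it at least 456-fold above the floor of 3 counts over all clock-low cells, with no 1 CPM added. With 1 CPM added to each mean, its log2 ratio was 5.12. Only its clock-high cells brought Lad1 into the comparison. Lad1 was also read in 7 of 16 middle and 10 of 43 epiblast-like cells.

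Bcor, a corepressor of a Polycomb complex, had lowest, median and highest values of 0, 29.6 and 136 CPM in clock-high cells and 0, 0 and 50.4 CPM in clock-low cells, with reads in 10 clock-high and 2 clock-low cells (log2 ratio 3.37). Aebp2, an accessory subunit of the other main Polycomb complex, had 0, 64.5 and 168 CPM in clock-high cells and 0, 0 and 75.6 CPM in clock-low cells, with reads in 12 clock-high and 6 clock-low cells (log2 ratio 3.07). S1pr3, a receptor for the lipid signal sphingosine 1-phosphate, had reads in 11 clock-high and 3 clock-low cells at 63.9 ± 95.7 CPM in clock-high and 6.81 ± 26.4 CPM in clock-low cells (log2 ratio 3.06). Unlike the others it was nearly absent from epiblast-like cells, with reads in 1 of 43. Its log2 ratio was 1.87 within plate columns 7 to 12 and 6.11 within columns 1 to 6, where the clock-low mean was 0 CPM. Middle cells averaged 16.7 CPM of Bcor and 32.2 CPM of S1pr3, between the clock groups, but 70.1 CPM of Aebp2, as much as clock-high cells.

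The 12 genes with the largest negative ratios by the same rule were Zmym3, Gap43, Slc2a4rg-ps, Bcas3, Cebpb, Ulk2, Fam20b, Zfp60, Tpm2, Dennd1b, Stmn2 and Rnaseh1. Gap43, which encodes a growth cone protein of neurons, was read in 0 of 16 clock-high, 9 of 16 clock-low and 25 of 43 epiblast-like cells. Its clock-low sum was at least 259-fold higher than the floor of 3 counts over all clock-high cells, with no 1 CPM added. With 1 CPM added to each mean, its log2 ratio was -4.15. Only its clock-low cells brought Gap43 into the comparison. Stmn2, a microtubule regulator gene known from neurons, had lowest, median and highest values of 0, 0 and 31.4 CPM in clock-high cells and 0, 26.7 and 126 CPM in clock-low cells (log2 ratio -3.07), and reads in 38 of 43 epiblast-like cells. Cebpb, a leucine zipper transcription factor gene, had reads in 3 clock-high and 13 clock-low cells, at means of 0.281 ± 0.609 CPM in clock-high and 12.6 ± 25.6 CPM in clock-low cells (log2 ratio -3.41). Fam20b, a kinase gene of glycosaminoglycan synthesis, had reads in 3 clock-high and 10 clock-low cells (log2 ratio -3.35). On the neural list, Sox1 and Sox3 had no read in either group, while Sox2 had reads in 11 cells of each. Irx3 was read in 2 clock-high and 2 clock-low cells, Pax6 in 2 and 1 and Nkx6-1 in 0 and 2. A neural character of the clock-low cells was not tested.

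Among 7372 genes with a read in at least 24 of the 48 mesoderm-like cells, those most like the clock score over cells were Gnb1 (Spearman's rho 0.65), Tubb5 (0.64), Tdpx-ps1 (0.60), Srsf11, Pim1, Gm7102, Cyb5b, Gm7324, Canx and Arl6ip6. They were picked from all these genes for their rho, which is a description. Gnb1, a beta subunit of heterotrimeric G proteins, was the clearest. Its lowest, median and highest values were 307, 1213 and 2318 CPM in clock-high cells and 138, 394 and 1806 CPM in clock-low cells, with means of 1331 ± 442, 853 and 466 ± 380 CPM in clock-high, middle and clock-low cells (log2 ratio 1.51). The groups overlapped through 1 cell at the low end of the clock-high and 1 cell at the high end of the clock-low values. The log2 ratio was 1.99 within plate columns 1 to 6 and 1.41 within columns 7 to 12. Epiblast-like cells, with a median clock score near 0, averaged 1260 CPM of Gnb1, as much as clock-high cells.

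Tubb5, a beta tubulin gene, averaged 3665 ± 1012 CPM in clock-high and 2146 ± 1457 CPM in clock-low cells (log2 ratio 0.77, not called). Arl6ip6 had reads in 13 clock-high and 6 clock-low cells, at 120.0 ± 97.1 CPM in clock-high and 24.3 ± 69.3 CPM in clock-low cells (log2 ratio 2.26). Pim1, a serine/threonine kinase gene, averaged 22.4 ± 19.1 CPM in clock-high and 6.24 ± 7.03 CPM in clock-low cells (log2 ratio 1.69). Tdpx-ps1 is annotated as a processed pseudogene, so that reads of a near-identical gene may be counted there.

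At the other end, the genes that ran most against the score were Gm10263 (rho -0.59), Asap1 (-0.48), Dynlt1f, Ube2n, Gadd45gip1, Plekha3, Slc25a4, mt-Tv, Gli3 (-0.44) and Commd1, of which Gm10263 is a pseudogene and Dynlt1f has near-identical neighbours. Gli3, a transcription factor of the Hedgehog pathway, had lowest, median and highest values of 0, 27.8 and 339 CPM in clock-high cells and 0, 133 and 382 CPM in clock-low cells, with means of 66.7 ± 105 CPM in clock-high and 171 ± 130 CPM in clock-low cells (log2 ratio -1.34). The log2 ratio was -1.58 within plate columns 1 to 6 and -0.92 within columns 7 to 12. Asap1, a regulator of Arf GTPases, had reads in 7 clock-high and 16 clock-low cells, at 32.5 ± 71.2 CPM in clock-high and 112 ± 120 CPM in clock-low cells (log2 ratio -1.76). Plekha3 had reads in 7 clock-high and 13 clock-low cells (log2 ratio -1.88).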

How the data were processed

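The data were Smart-seq2 libraries of 91 sorted cells of 1 pool. The authors aligned the reads to GRCm38 (mm10) with HISAT2 and counted them per annotated gene with featureCounts; the deposited values are raw counts of reads for 53379 genes, of which 53274 identifiers were matched to symbols (GENCODE M21). The annotation, the strand setting and tool versions were not given in the sources used here, so reads of overlapping, antisense and near-identical genes cannot be told apart. The deposited table names no spike-in rows, and spike-in shares, planned as a technical value, were not analysed here.

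Each cell was scaled to 1000000 counts (CPM) in Python 3.11.15 with numpy 2.4.6, pandas 2.3.3 and scipy 1.17.1, and plots were drawn with matplotlib 3.10.9. Where symbols were shared, the identifier with the most reads stood for the symbol. Cells were grouped as the report describes. Ratios are of mean CPM plus 1 CPM, and a gene was called at 2-fold with reads in at least 8 of 16 cells of the higher group. With 1 pool there is no test. Shares have exact Clopper-Pearson and sums of reads exact Poisson intervals of 95%, and a count of 0 was limited to 3 counts or cells, for counting error only, since reads are not independent molecules. Total counts per cell were 709866 to 4439571. No cell was left out, and no doublet caller was run on these single-cell wells.

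The cells, clock genes, 19 gene lists and comparisons were chosen with earlier results of these data known. Genes were named by rule: the 12 largest called ratios in each direction that held without the highest cell, up to 6 called members of a list, a fixed set of clock and presomitic genes, and the 10 genes most and least alike to the clock score. Other genes named as read in few or no cells, and Rbpj and Lmo2, were chosen after their values were seen. Alternatives covered the pseudocount, scaling, depth, detection, group size, ranking, cell rule, plate columns and highest cells; the highest cell of either group was left out of uncalled genes after seeing the data. The calling and ranking steps were tested on simulated data.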

Additional observations from a re-analysis of the deposited data

How the results depend on the processing

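The numbers of genes called higher and lower in clock-high cells (480 and 408) moved by over 1.5 times under 6 alternatives, to 242 and 206 with a pseudocount of 10 CPM, 242 and 219 without the highest cell of the higher group, 822 and 729 with no detection asked for, 937 and 850 as a difference of mean log2(CPM + 1), 1091 and 951 between the top and bottom 8 cells, and 212 and 238 between the upper and lower 24 cells. Within plate columns 1 to 6, an alternative chosen after seeing the data, they were 838 and 731. Median-of-ratios size factors gave 542 and 369, thinning to 500000 counts 447 and 377, ranking without Lfng 457 and 430, without Hes7 490 and 415, without Nrarp 431 and 416, the sum of CPM 425 and 447 and an Aldh1a2 level of at least 10 times Nkx1-2 429 and 479. Counts close to the main ones include other genes, since 174 and 180 calls were shared under the sum of CPM and 225 and 223 without Nrarp. Hes7 ranked by Lfng and Nrarp fell to a log2 ratio of 0.97 with thinned cells.

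Named genes that turned were Sox2 (0.25 without the highest cell, 0.18 between the outermost 8 cells, 0.30 with the stricter cell rule and 0.057 within plate columns 1 to 6), Id3 (-0.49 between the upper and lower 24), Pcdh8 (-0.36 without Lfng), Rpap1 (-0.076 without Hes7 and -0.033 with the stricter cell rule), and Snai1 (-0.16), Cdc6 (-0.026) and Slc2a3 (-0.65) under the sum of CPM. Without turning, the call was lost most often between the upper and lower 24 cells, in 31 of 58 named genes. The sum of CPM lost 26 of 58, ranking without Nrarp 22 of 58 and median-of-ratios size factors 1 of 58. The log2 ratio came as near 0 as 0.11 for Zfp748, 0.14 for Chic1, -0.10 for Ulk2 and -0.093 for Tpm2. Bcor, Bcas3 and Fam20b kept the call in all 15 alternatives. No paired analysis was possible because the cells came from 1 pool and carry no replicate number shared between groups. The depth limits the low genes: 1 read was worth 0.225 to 1.41 CPM, and cells with no read may hold transcripts that were not captured.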
